A study of Homo sapiens with 2 samples.

Results

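The SUB1 siRNA 2 knockdown was measured on 1 of the 2 arrays of the series, and the array was taken whole, with every gene probe on it. It compared PC3 cells transfected with SUB1 siRNA 2, labelled with Cy5, with PC3 cells transfected with non-targeting (Non-T) siRNA, labelled with Cy3. PC3 is an established line from a prostate cancer metastasis, is widely used as a model of androgen-independent disease, and has no functional p53. Cells of both arms received the same Lipofectamine RNAiMAX transfection, with a repeat 24 h later, and were harvested 72 h after the first. The other array of the series compared SUB1 siRNA 1 with Non-T siRNA in the same cells. Its values are given only side by side, because both arrays were read against Non-T RNA and the sources do not say whether it was the same extract. There was 1 array, with no replicate and no dye swap, so none of the differences below has a test. The knockdown and the dye of a channel always went together, so the bias of a probe toward 1 dye and a response to the siRNA cannot be separated.

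SUB1, also called PC4, is a single-stranded DNA-binding coactivator that helps RNA polymerase II transcription and is a chromatin protein with roles in replication and repair. An siRNA duplex guides the cleavage of the matching messenger RNA. Several programmes described below are known responses of stressed or arrested cells: ATF4 is the transcription factor through which amino acid shortage and endoplasmic reticulum stress switch on genes such as DDIT3 and ASNS, interferon-stimulated genes answer viral or foreign RNA, and clustered histone genes are normally copied in S phase and end without a poly(A) tail.

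The array held 45015 spots, of which 43376 were gene spots for 41000 probes. At least 1 channel was well above background for 26131 probes, which stood for 19550 genes. The median gene spot was 114 intensity units in Cy3 and 105 in Cy5, against 78.6 and 61.2 for negative control spots, and no gene spot was saturated. The log2 ratio of Cy5 over Cy3 was normalized for the brightness of the spot by loess, so it can differ from the plain ratio of the intensities quoted here, above all for bright spots, where Cy5 was generally the brighter dye. For the 166 kept probes spotted 10 times, the SD of the log2 ratio among the 10 spots had a median of 0.07 and reached 0.16 at most. That SD covers spotting and scanning on this array only. Different probes of a gene differed more, by a median of 0.18 on the log2 scale between the brightest and the next probe. All 8 markers of a prostate epithelial line were measured, with KRT19 at 47923 units in Cy3 and VIM at 29034. KLK2, a luminal prostate marker, lay at 106 units in Cy3. KLK3, the prostate-specific antigen gene, gave 15436 units at its brighter probe and 98.2 at its other probe, so its presence is uncertain. PTPRC and LYZ, markers of immune cells, were not well above background.

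SUB1 itself was the most decreased gene of the array. Its brightest probe, at chr5:32627546-32634880 (hg18, plus strand), read 6300 intensity units in Cy3 and 820 in Cy5, a log2 ratio of -3.26, which is 10.4% of the level in control cells. The 4 SUB1 probes gave log2 ratios between -3.50 and -1.57, and the smallest drop was at the dimmest probe, which read 309 units in Cy3. On the siRNA 1 array the brightest probe stood at -3.30.

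Across all genes, 118 were at least 2-fold higher with SUB1 siRNA 2 (0.604% of the genes measured) and 205 were at least 2-fold lower (1.05%), so 36.5% of the changed genes were higher. The median of all genes was 0.02 on the log2 scale, and 53.8% of genes lay above 0. The interferon list made up 15 of the higher genes and the mitosis list 36 of the lower genes. That left 103 higher and 169 lower genes outside those lists. The lists are not complete, so these remaining genes still include some of both kinds. GBP3 and BATF2, known to follow interferon, and CEP55, which acts in cytokinesis, are examples. In the plot of all genes, SUB1 and ATP5MG lay apart from the rest at the lower edge and RSAD2 at the upper edge. The split depended on the dye correction: with median centring in place of loess, 266 genes were higher and 101 lower, and the percent of changed genes that were higher was then 72.5. In the table of log2 ratios by the authors, 148 were higher and 164 lower. Probes of the same gene did not always agree. Of the higher genes, 48 had another kept probe, the next brightest probe was also past 2-fold for 9 of them, and it pointed the same way for 42. Of the lower genes, 55 had another probe, which was past 2-fold for 16 and pointed the same way for 53.

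**Figure D1:**
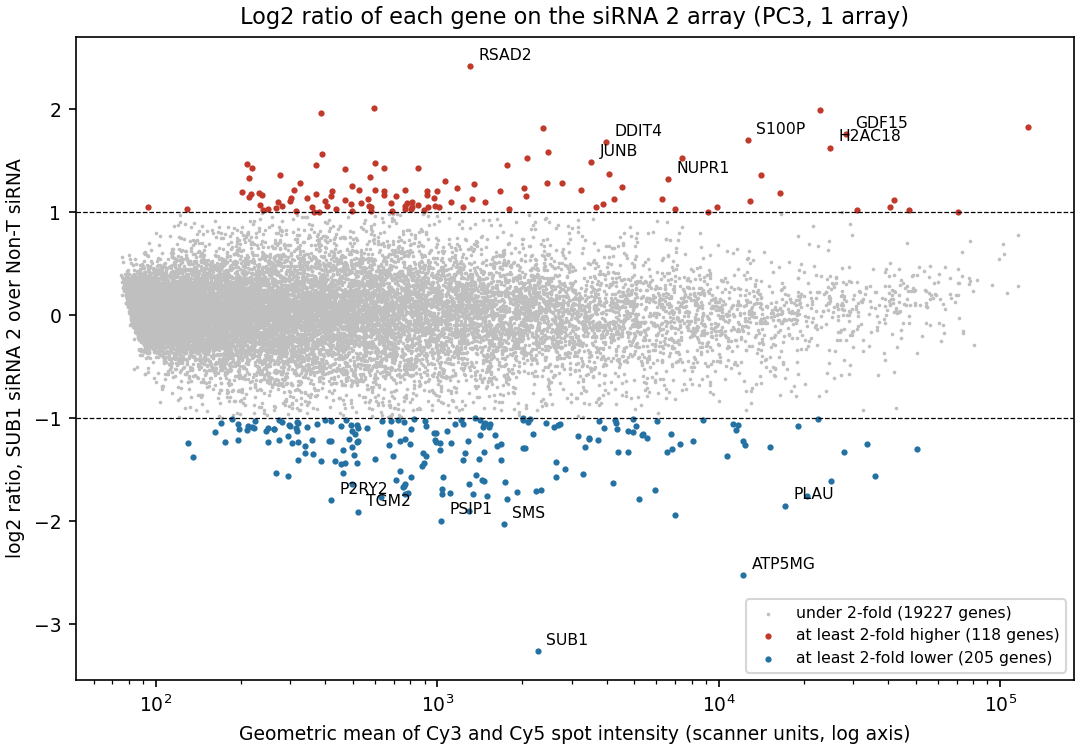
Each point is 1 of the 19550 genes on the siRNA 2 array, with the geometric mean of both channel intensities on the horizontal log axis and the loess-normalized log2 ratio (Cy5 over Cy3) on the vertical axis; dashed lines mark 2-fold. The 118 higher and 205 lower genes lie beyond the dashed lines, and SUB1 lies lowest at -3.26.

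Promoter sequence is shown for 4 genes of the programmes below, chosen after their values were seen: DDIT4 for the stress and hypoxia genes, H2AC7 and H4C2 for histone genes that moved in opposite directions, and RSAD2, the most increased gene. Each window runs from 250 bases before to 50 bases after the RefSeq start and is written 5′ to 3′ on the gene's strand in GRCh38.p14 coordinates (chr10:72273674-72273973 on the plus strand, chr6:26199244-26199543 and chr6:26027234-26027533 on the minus strand, chr2:6877527-6877826 on the plus strand). Capitals mark ACGTG, the core of the hypoxia response element, in DDIT4, CCAAT in H2AC7 and the interferon-stimulated response element (GAAA, any 2 bases, GAAA) in RSAD2, each searched on both strands. H4C2 has no CCAAT in this window. Of the 19550 measured genes, 10631 have a window in the RefSeq table, and the shares of genes with a motif given below are over those.
DDIT4: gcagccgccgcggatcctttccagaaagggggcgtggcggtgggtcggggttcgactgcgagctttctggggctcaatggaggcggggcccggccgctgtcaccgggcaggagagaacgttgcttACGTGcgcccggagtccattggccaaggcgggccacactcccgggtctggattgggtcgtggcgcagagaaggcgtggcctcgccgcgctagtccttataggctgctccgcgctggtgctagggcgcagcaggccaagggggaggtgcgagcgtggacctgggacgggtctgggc
H2AC7: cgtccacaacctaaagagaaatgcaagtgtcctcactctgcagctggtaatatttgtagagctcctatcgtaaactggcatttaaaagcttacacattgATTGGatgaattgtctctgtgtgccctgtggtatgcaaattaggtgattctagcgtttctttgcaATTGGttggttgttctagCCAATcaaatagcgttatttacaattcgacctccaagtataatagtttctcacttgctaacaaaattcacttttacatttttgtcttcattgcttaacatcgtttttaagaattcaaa
H4C2: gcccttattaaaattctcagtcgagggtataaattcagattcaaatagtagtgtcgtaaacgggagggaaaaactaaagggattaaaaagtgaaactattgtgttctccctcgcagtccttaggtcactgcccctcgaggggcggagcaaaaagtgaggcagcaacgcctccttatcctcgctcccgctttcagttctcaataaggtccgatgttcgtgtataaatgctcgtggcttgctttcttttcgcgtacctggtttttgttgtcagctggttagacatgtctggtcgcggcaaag
RSAD2: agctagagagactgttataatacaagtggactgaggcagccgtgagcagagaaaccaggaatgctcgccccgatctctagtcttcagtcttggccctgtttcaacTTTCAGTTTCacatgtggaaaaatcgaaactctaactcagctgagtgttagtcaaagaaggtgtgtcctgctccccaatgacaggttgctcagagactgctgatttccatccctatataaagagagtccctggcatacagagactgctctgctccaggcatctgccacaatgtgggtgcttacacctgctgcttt
Matches are descriptions of letters, not of bound sites. The single DDIT4 match begins at -125 from the start, the H2AC7 matches at -151, -86 and -68, and the RSAD2 match at -145.

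Among genes with a RefSeq name outside the interferon and mitosis lists, the largest increase was that of a stress-responsive secreted factor. GDF15, a TGF-beta family cytokine secreted by stressed cells, read 12984 units in Cy3 and 62116 in Cy5, a log2 ratio of 1.76 (3.38-fold), against 0.47 with siRNA 1. S100P, a calcium-binding protein of epithelial cancers, read 6059 and 26619 units, a log2 ratio of 1.70. DDIT4, an inhibitor of mTORC1 signalling, read 1969 and 8003 units, a log2 ratio of 1.68. These 3 genes were more than 3-fold higher in the cells with SUB1 siRNA 2, and each stood at 0.36 to 0.51 with siRNA 1.

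TNFSF10, which encodes the death ligand TRAIL, was measured with 10 spots. It went from 217 to 699 units, a log2 ratio of 1.57 ± 0.08 (SD among the 10 spots of 1 array), and its value with siRNA 1 was 0.36. NT5C3A, a pyrimidine nucleotidase, stood at 1.58, and BATF2, a leucine zipper factor also known to follow interferon, at 1.43. For NT5C3A the siRNA 1 value was 0.29 and for BATF2 it was -0.02. KCNJ2, an inward rectifier potassium channel, was dim in both channels (125 and 356 units) with a log2 ratio of 1.47. JUNB, an AP-1 transcription factor, stood at 1.48 at its bright probe (1874 and 6599 units) and at 0.37 at its dim probe. Other named increases also had a dimmer probe under 2-fold: ZBTB1 had 1.46 and 0.45, MYPN 1.42 and 0.23, APOL3 1.36 and -0.07, and TMEM150A 1.34 and 0.58. The dimmer probe of H2AC18 did follow, with 1.62 and 1.37. With the mean of all probes in place of the brightest, JUNB, ZBTB1, MYPN, APOL3 and TMEM150A were no longer past 2-fold.

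Genes for which every one of at least 2 probes passed 2-fold in the same direction numbered 18, with 9 higher and 9 lower. The higher ones were RSAD2, IFIT2, GBP1, GBP3 and XAF1, all known to follow interferon, together with H2AC18, STC2, ATOSA and 1 transcript without a gene name, which gave 1.96 and 1.70. STC2, a secreted glycoprotein of the stanniocalcin family, gave 1.23 and 1.30 at its 2 probes. The lower ones were SUB1, ATP5MG, SMS, SH3BP5, RAB14, ENO1, YWHAQ, PABPC1 and MGC27348, which carries the name in the array file. All 4 probes of YWHAQ, a 14-3-3 adaptor, were at or past 2-fold, the brightest at -1.28. ENO1, a glycolytic enolase (-1.23 and -1.39), YWHAQ and PABPC1, the poly(A)-binding protein, were among the bright genes, and with median centring in place of loess their representative probes were at -0.84, -0.88 and -0.66. For ENO1 and PABPC1, which have near-identical copies elsewhere in the genome, probes cannot separate the copies. Some probes of YWHAQ, PABPC1, MGC27348 and the transcript without a gene name overlap in position, so their agreement is not that of separate readings.

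The ATF4 amino acid response list had a median log2 ratio of 0.36 over its 30 measured members, against 0.02 for all genes, and 6 members were at least 2-fold higher with none lower by that much. Of the 30, 25 lay above 0 (83.3%, beside 53.8% of all genes). The 6 were GDF15, DDIT4, NUPR1, STC2, DDIT3 and ATF3. NUPR1, a small stress-induced chromatin protein, went from 3663 to 11907 units, a log2 ratio of 1.32, and stood at 0.04 with siRNA 1. DDIT3, which encodes the stress transcription factor CHOP, went from 511 to 1280 units, a difference of 2.14-fold after normalization. ATF3 read 1.09 at its bright probe and 0.38 at a probe that was above background in Cy5 only.

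The transcription factor ATF4 itself was at 0.67, and its feedback inhibitor TRIB3 at 0.69, from 13944 to 31423 units. On the siRNA 1 array TRIB3 stood at -0.97 and ATF4 at -0.22. Amino acid enzymes and transporters of the list were under 2-fold in both directions. ASNS, which makes asparagine, stood at 0.49, the mitochondrial folate enzyme MTHFD2 at 0.50 and the amino acid transporter SLC38A2 at 0.48. CTH, an enzyme of cysteine synthesis, was at -0.80 and was the lowest member. PHGDH, the first enzyme of serine synthesis, was at -0.10 and the cystine transporter SLC7A11 at -0.16. On the siRNA 1 array the median of the list was -0.04. Aminoacyl-tRNA synthetases, several of which ATF4 is known to induce, were a list of their own, and none of the 23 was past 2-fold. The related list of endoplasmic reticulum stress and folding genes had a median of 0.12 over 28 genes, with the cochaperone DNAJB9 at 1.15 and the disulfide isomerase PDIA6 at -1.01. With the mean of all probes ATF3 was under 2-fold and the median of the ATF4 list was 0.27, which no longer reached the distance of 0.25 from all genes that was used to call a list shifted. The core of the amino acid response element (TGATG, any base, AA, either strand) was in the window of 8 of the 24 measured members that have one (33.3%), beside 2.79% of all measured genes with a window and 3.62% of all windows. Among the 5 higher members with a window, ATF3 was the only one that had it.

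**Figure D2:**
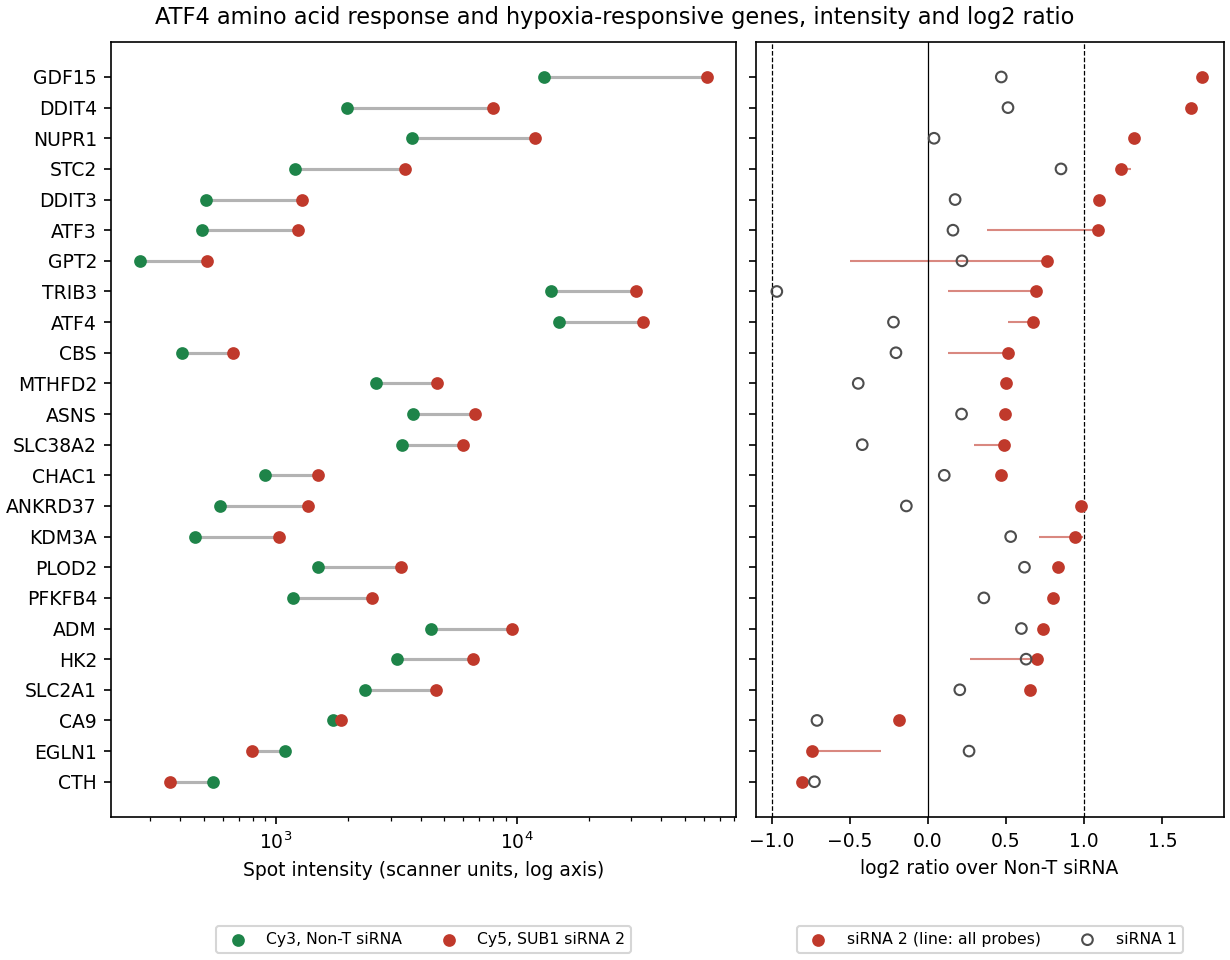
Members of the ATF4 and hypoxia lists, with the Cy3 (Non-T siRNA) and Cy5 (SUB1 siRNA 2) spot intensity on a log axis at the left and the log2 ratio at the right, where filled points are siRNA 2, red lines span all probes of the gene and open points are siRNA 1. GDF15 and DDIT4 lie furthest to the right, at 1.76 and 1.68, and CTH and EGLN1 lie below 0.

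Hypoxia-responsive genes, which cells switch on through HIF when oxygen is short, had a median of 0.39 over 32 measured members. Of the 32, 22 lay above 0 (68.8%, beside 53.8% of all genes). DDIT4 and STC2, also members of the ATF4 list, were at least 2-fold higher and no member was 2-fold lower. ANKRD37 stood at 0.98, the histone demethylase KDM3A at 0.94, the collagen lysyl hydroxylase PLOD2 at 0.83 and the glycolytic regulator PFKFB4 at 0.80. The peptide hormone ADM (0.73), the hexokinase HK2 (0.70) and the glucose transporter SLC2A1 (0.65) were also higher. CA9, carbonic anhydrase IX, stood at -0.18, and EGLN1, the oxygen sensor that marks HIF for destruction, at -0.74. STC1 was not well above background in Cy3 and read 0.11. With siRNA 1 the median was 0.13. The core ACGTG was in the promoter window of 18 of the 26 measured members that have a window (69.2%), beside 31.4% of all measured genes with a window and 21.4% of all 35116 windows. DDIT4 had it and STC2 had none in this window.

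Sterol genes were higher in part. HMGCS1, an early enzyme of cholesterol synthesis, gave 1.02 and 0.14, and it was not past 2-fold with the mean of its probes. STARD4, a sterol carrier that was well above background in Cy5 alone, stood at 0.76, and INSIG1, the sterol-sensing regulator, at 0.67. Other enzymes of the pathway lay below 0, with EBP at -0.24 and FDPS at -0.19. The 25 measured members had a median of 0.17, with none at least 2-fold lower, and 0.13 with siRNA 1. ANGPTL4, a lipase inhibitor that follows PPAR and hypoxia signals, stood at 1.28 on both arrays.

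Clustered histone genes differed by class. The list of 60 measured genes had a median of 0.36, with 6 members higher by 2-fold or more and 5 lower by as much. All 6 higher genes encode H2A: H2AC18, H2AC7, H2AC21, H2AC6, H2AC8 and H2AC25. All 5 lower genes encode H4: H4C3, H4C2, H4C13, H4C4 and H4C5. H2AC18 went from 11942 to 51763 units, a log2 ratio of 1.62 with 1.37 at its other probe. H2AC7 went from 3815 to 14368 units, a log2 ratio of 1.52. H4C3 went from 37261 to 20964 units, a log2 ratio of -1.33, and H4C2 from 6659 to 3395 units, also -1.33. With median centring H4C3 stood at -0.89, under 2-fold, and H4C2 at -1.02. The 14 H2A genes had a median of 0.92 and lay between 0.24 and 1.62. The 16 H2B genes, most of which share a promoter region with an H2A gene, had a median of 0.63, and 15 lay above 0. The 11 H3 genes had a median of -0.10, the 13 H4 genes -0.03 with a range from -1.33 to 0.66, and the 6 linker histone H1 genes -0.45 with none above 0. With siRNA 1 the medians were 0.44 for H2A, 0.35 for H2B, -0.05 for H3, -0.17 for H4 and -0.34 for H1. Genes of a histone class are near-identical in sequence, so signal can be shared among copies. Some bright H2A genes had a dimmer probe that did not follow: H2AC21 gave 1.25 and -0.22, and H2AC6 gave 1.22 and 0.06. When all probes were averaged, the list lay 0.12 above all genes. The labelling used oligo-dT primers, which favour RNA with a poly(A) tail, and more poly(A)-tailed histone RNA cannot be told apart from more histone RNA.

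CCAAT was in the promoter window of 45 of 54 measured histone genes with a window (83.3%), beside 43.4% of all measured genes with a window and 34.6% of all windows. Every H2A, H2B and H3 gene with a window had it (13, 16 and 9 genes), although the H3 genes lay near 0. Of the 11 H4 genes with a window 3 had it. Of the 4 lower H4 genes with a window, 1 had it. In the windows printed above, H2AC7 holds it and H4C2 does not.

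**Figure D3:**
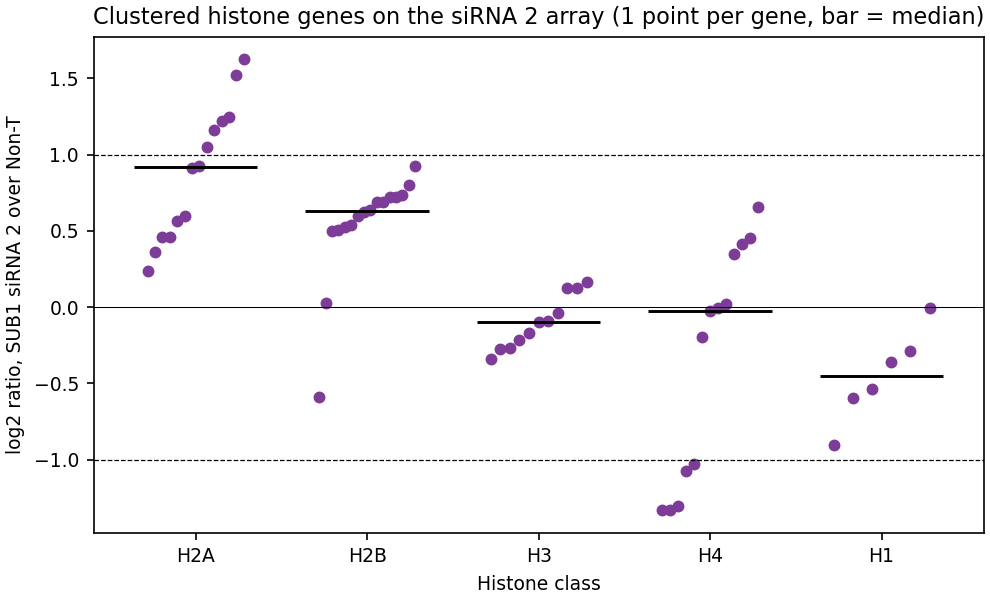
Each point is 1 clustered histone gene on the siRNA 2 array, grouped by histone class on the horizontal axis, with its log2 ratio (Cy5 over Cy3) on the vertical axis; bars are class medians and dashed lines mark 2-fold. The H2A points lie between 0.24 and 1.62, and 5 H4 points lie at or below -1.03.

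Outside the interferon and mitosis lists, the most decreased gene after SUB1 was a mitochondrial one. ATP5MG, the g subunit of the ATP synthase, at chr11:117784978-117785037 (hg18, plus strand), went from 25141 to 5919 units, a log2 ratio of -2.52 (17.4% of control), and its dimmer probe gave -1.24. With siRNA 1 the brighter probe stood at 0.06. The other subunits of oxidative phosphorylation did not share this: the list of 72 genes had a median of -0.09, with COX15, a haem A synthase needed for cytochrome oxidase, the only other member at least 2-fold lower. COX15 gave -1.22 and -0.49.

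SMS, the enzyme that makes spermine, went from 3134 to 949 units, a log2 ratio of -2.03, with -1.29 at its other probe and 0.04 with siRNA 1. PSIP1, a chromatin-tethering coactivator also called LEDGF, went from 1873 to 570 units, 3.99-fold lower after normalization, while its other probes gave log2 ratios of -0.98 and -0.34. FAM3C, a secreted factor linked to epithelial-mesenchymal transition, gave -1.74, -1.38 and -0.99 at its 3 probes, against 0.11 with siRNA 1 at the brightest. EIF3J, a loosely bound subunit of initiation factor eIF3, stood at -1.72, from 3133 to 1175 units, and at -0.07 with siRNA 1. It was the only translation factor of 52 past 2-fold, and the median of that list was -0.15. P2RY2, a nucleotide receptor, went from 726 to 240 units (-1.80), and the actin bundler PLS3 from 2312 to 920 units (-1.61). With siRNA 1 P2RY2 stood at 0.07 and PLS3 at 0.03. MALL, a membrane raft protein, read -1.64 at its bright probe, and its dim probe was above background in Cy3 only. SH3BP5, a mitochondrial JNK-binding protein, gave -1.56 and -1.15, and its brighter probe stood at 0.37 with siRNA 1. RAB14, a GTPase of endosome traffic, gave -1.21 and -1.03, against 0.45 with siRNA 1, and was the only RAB GTPase of 47 past 2-fold. Against these stood CEP55, PCLAF and CDKN3, which act in cytokinesis, replication and the cell cycle. They read -1.72, -1.63 and -1.62 with siRNA 2 and -1.18, -0.99 and -0.89 with siRNA 1.

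**Figure D4:**
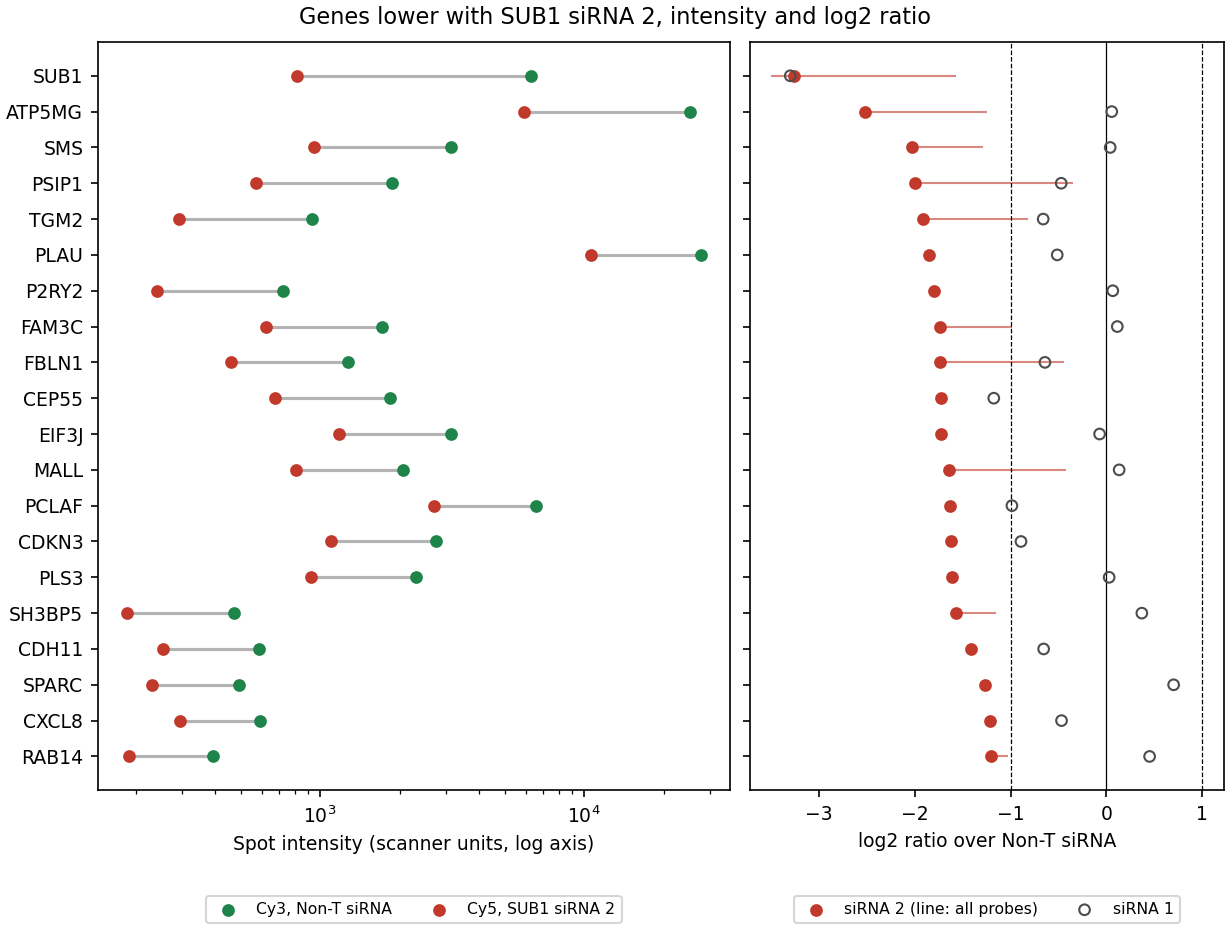
Genes lower with SUB1 siRNA 2, with the Cy3 (Non-T siRNA) and Cy5 (SUB1 siRNA 2) spot intensity on a log axis at the left and the log2 ratio at the right, where filled points are siRNA 2, red lines span all probes of the gene and open points are siRNA 1. SUB1 lies at -3.26 and -3.30 with the 2 duplexes, while ATP5MG lies at -2.52 with siRNA 2 and 0.06 with siRNA 1.

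The matrix, mesenchymal and actin lists did not shift, but single genes of these and other lists were lower. PLAU, the urokinase protease that opens matrix for invading cells, was measured with 10 spots. It went from 27761 to 10609 units, a log2 ratio of -1.85 ± 0.08 (SD among the 10 spots of 1 array), and stood at -0.51 with siRNA 1. TGM2, a protein cross-linking transglutaminase, went from 933 to 291 units, a log2 ratio of -1.92, and gave -0.82 at its dimmer probe. FBLN1, a matrix glycoprotein, gave -1.74 and -0.44 at its 2 probes. CDH11, a mesenchymal cadherin, stood at -1.42, from 588 to 255 units. SPARC, a matrix protein of bone and stroma, stood at -1.27, and at 0.70 with siRNA 1. COL18A1, the source of endostatin, gave -1.33 and -0.16. CD44, a hyaluronan receptor measured with 10 spots, stood at -1.04 ± 0.07 (SD among the 10 spots of 1 array), against -0.83 with siRNA 1. The annexin ANXA5, which binds phosphatidylserine, stood at -1.19. With median centring CD44 and ANXA5 were under 2-fold, and COL18A1 was so with the mean of its probes. Of 43 measured matrix collagens, proteases and inhibitors, 3 were at least 2-fold lower (PLAU, COL18A1 and SPARC) and none higher. Of the 43, 25 lay above 0 (58.1%, beside 53.8% of all genes) and the median was 0.03. The mesenchymal list of 27 genes had a median of -0.02, with CDH11 and SPARC lower. The list of actin cytoskeleton genes and their small GTPases had a median of -0.21 over 46 genes with none past 2-fold, and the focal adhesion genes PXN and VCL stood at -0.71 and -0.70 while RND3, a small GTPase that loosens actin fibres, was at 0.80. Another PXN probe read 0.43.

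Among inflammatory chemokines 2 were at least 2-fold lower. CXCL8, the neutrophil attractant interleukin-8, went from 591 to 295 units, a log2 ratio of -1.22, and CXCL1 from 7564 to 4807 units, -1.03. With siRNA 1 they stood at -0.47 and -1.34. CXCL6 was at -0.97. CXCL8 and CXCL1 were the only NF-kB inflammatory genes of 36 past 2-fold, and the median of that list was -0.03. Of the 36, 17 lay above 0 (47.2%, beside 53.8% of all genes) and 19 below, with the cytokine IL6 the highest at 0.93. FOSL1, an AP-1 subunit linked to invasion, gave -1.14 and -0.88, while JUNB was higher. With median centring CXCL1 and FOSL1 were under 2-fold. CCR1, a chemokine receptor, stood at 1.03.

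Among metabolic lists, 2 lay below all genes by small amounts. The tricarboxylic acid cycle list had a median of -0.24 over 24 genes, with 1 at least 2-fold lower, ACO1. ACO1, the cytosolic aconitase that also acts as an iron sensor, gave -1.10 and -0.87, against 0.06 with siRNA 1. IDH2 was at -0.80, FH at -0.69 and DLD at -0.60. This list was no longer 0.25 below all genes under 5 of the 12 processing alternatives, among them the table of log2 ratios by the authors. Pyrimidine and purine metabolism had a median of -0.28 over 43 genes, with the kinase UCKL1 at -1.06 and NT5C3A at 1.58. The purine and folate enzymes PAICS, GART and MTHFD1 stood at -0.56, -0.49 and -0.66, and CAD, which starts pyrimidine synthesis, at -0.57. Glycolysis enzymes had a median of -0.03 over 19 genes, with ENO1 the only member past 2-fold.

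Metallothioneins, small zinc-binding proteins, were lower as a group. The 12 measured members of the metallothionein and zinc transport list had a median of -0.54, although none was past 2-fold. Of the 12, 3 lay above 0 (25%, beside 53.8% of all genes). MT1B, MT1E and MT1L stood at -0.69, -0.68 and -0.67, and MT2A at -0.15. The transcription factor MTF1 and the zinc exporter SLC30A1 were at 0.20 and 0.25. With siRNA 1 the median was 0.28. Metallothionein copies are near-identical, so these are not independent readings, and most are very bright. With median centring in place of loess the list lay 0.23 below all genes.

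The list of cyclin-dependent kinase inhibitors and quiescence genes did not shift. Its 24 measured members had a median of 0.15, and 13 lay above 0 (54.2%, beside 53.8% of all genes). CDKN1B and TOB1 were at least 2-fold higher and CDKN3 was 2-fold lower or more. CDKN1B, which encodes the inhibitor p27, was measured with 10 spots and went from 369 to 982 units, a log2 ratio of 1.21 ± 0.05 (SD among the 10 spots of 1 array). Its other probe, at 141 units in Cy3, gave 0.34, and the mean of both probes was under 2-fold. With siRNA 1 CDKN1B stood at 0.71. TOB1, an antiproliferative adaptor, stood at 1.03. Its other probe, placed on the opposite strand, gave 0.73 and may not read the TOB1 transcript. TP53INP1, a p53 target, stood at 1.00, close to its 0.98 with siRNA 1. GDF15 and TP53INP1 were the only p53 target genes of 28 past 2-fold, and the median was 0.17. The 38 measured BCL2 family and caspase genes had a median of 0.20 and none was past 2-fold.

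Mitosis and replication genes were lower on this array. These were bulk samples, so fewer dividing cells and less of these RNAs per cell cannot be told apart. Of 54 mitosis genes 36 were at least 2-fold lower and 1 lay above 0, with a median of -1.11, and -0.84 with siRNA 1. PLK1, the mitotic kinase, stood at -1.72 at its bright probe and -0.30 at its dim probe, and BUB1B, of the spindle checkpoint, at -1.34. The mitotic kinases PBK and CDK1 and the cyclin CCNB2 stood at -1.77, -1.76 and -1.74. DNA replication genes had a median of -0.64 over 48, and 7 were at least 2-fold lower, led by thymidine kinase TK1 (51412 to 25018 units, -1.56), the licensing factor CDT1 (-1.34 and -0.91), the ribonucleotide reductase subunit RRM2 (-1.26 and -0.48) and the helicase subunit CDC45 (-1.22). DNA repair genes had a median of -0.24 over 60. The recombination factor RAD54L (-1.44), the Fanconi genes FANCI (-1.10) and FANCD2 (-1.09) and the glycosylase OGG1 (2.01-fold lower) were at least 2-fold lower, though OGG1 kept this in 6 of 12 alternatives. EZH2, the polycomb methyltransferase, was at -0.73. MYC, measured with 10 spots, stood at -0.16 ± 0.05 (SD among the 10 spots of 1 array) and at -0.57 with siRNA 1. QKI, an RNA-binding protein, gave 0.72, 0.47 and 0.02.

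The interferon genes were higher on this array: 15 of 62 measured members were at least 2-fold higher and 59 lay above 0, with a median of 0.65, and -0.03 with siRNA 1. RSAD2, which encodes viperin, went from 517 to 3291 units, a log2 ratio of 2.42, and stood at 0.05 with siRNA 1. RTP4, a receptor transporter, the antiviral RNA-binding protein IFIT2 and the ubiquitin-like ISG15 stood at 2.01, 1.99 and 1.83. The antigen presentation genes of MHC class I, which interferon is known to raise, had a median of 0.65, and all 19 lay above 0. HLA-C was the only member past 2-fold, at its brightest probe, measured with 10 spots (1.02 ± 0.06, SD among the 10 spots of 1 array). Its other probes gave 0.94, 0.85 and 0.59, all under 2-fold. The brightest probe was placed at chr6:31429768-31429819 and the next at chr6:31344612-31344671 (hg18), so which class I gene each reads is uncertain. B2M stood at 0.78, TAP1 at 0.79 and HLA-B at 0.86. The interferon-stimulated response element was in the window of 30 of 46 measured interferon genes with a window (65.2%) and of 9 of 15 MHC class I genes (60%), beside 3.89% of all measured genes with a window and 3.57% of all windows.

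Chromatin and transcription genes close to SUB1 in function changed little as lists. General transcription factors had a median of 0.10 over 44, with SUB1 and BTF3 at least 2-fold lower. BTF3, a nascent chain and transcription factor with many pseudogene copies, gave -1.26, -1.01 and -0.93, and its brightest probe was under 2-fold with median centring, as were HMGB1 and HMGN2. Mediator subunits had a median of 0.10 over 31, with MED27 at -1.38 (211 to 86.1 units). RNA polymerase subunits had a median of -0.06 over 33 with none past 2-fold. HMGB1 and HMGN2, abundant chromatin proteins, stood at -1.16 and -1.01 at their brightest probes. The other HMGB1 probes lay between -1.03 and -0.74 and the other HMGN2 probes between -0.64 and -0.50. HMGN2 was past 2-fold in 7 of 12 alternatives. ATAD2B was at 1.06, and at 1.08 with siRNA 1. Zinc finger ZNF genes had a median of 0.12 over 359, of which 258 lay above 0 (71.9%, beside 53.8% of all genes) and none was past 2-fold. Cytosolic ribosomal proteins had a median of 0.01 over 78. RPS2 was the only member past 2-fold, at -1.30, and its 6 probes lay between -1.85 and -0.04. Those placed on the opposite strand gave -0.60 and -0.61.

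Of the 66 gene lists, 11 had a median at least 0.25 away from that of all genes, 5 above it and 6 below it. The other 55 lists had medians between -0.21 and 0.20, and 24 of them had no member past 2-fold. Heat shock proteins had a median of 0.03 over 27 with HSPA1A alone past 2-fold, at 1.11, 0.87 and 0.33 in its 3 probes. The NRF2 list had a median of -0.20 over 29 with PGD at -0.87, AKR1C1 at -0.78, FTH1 at 0.72 and HMOX1 at 0.67. The squamous differentiation list of 20 genes had a median of 0.09. TGM2 belongs to it, and its members KRT80, PI3 and A2ML1 stood at 1.28, 1.05 and 1.05, and the dimmer KRT80 probe at -0.62. HOXA13 was at 1.08, and at 1.47 with siRNA 1. The median of 19 reference genes was -0.13. The plot of gene lists sets the shifted lists beside lists that did not shift.

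**Figure D5:**
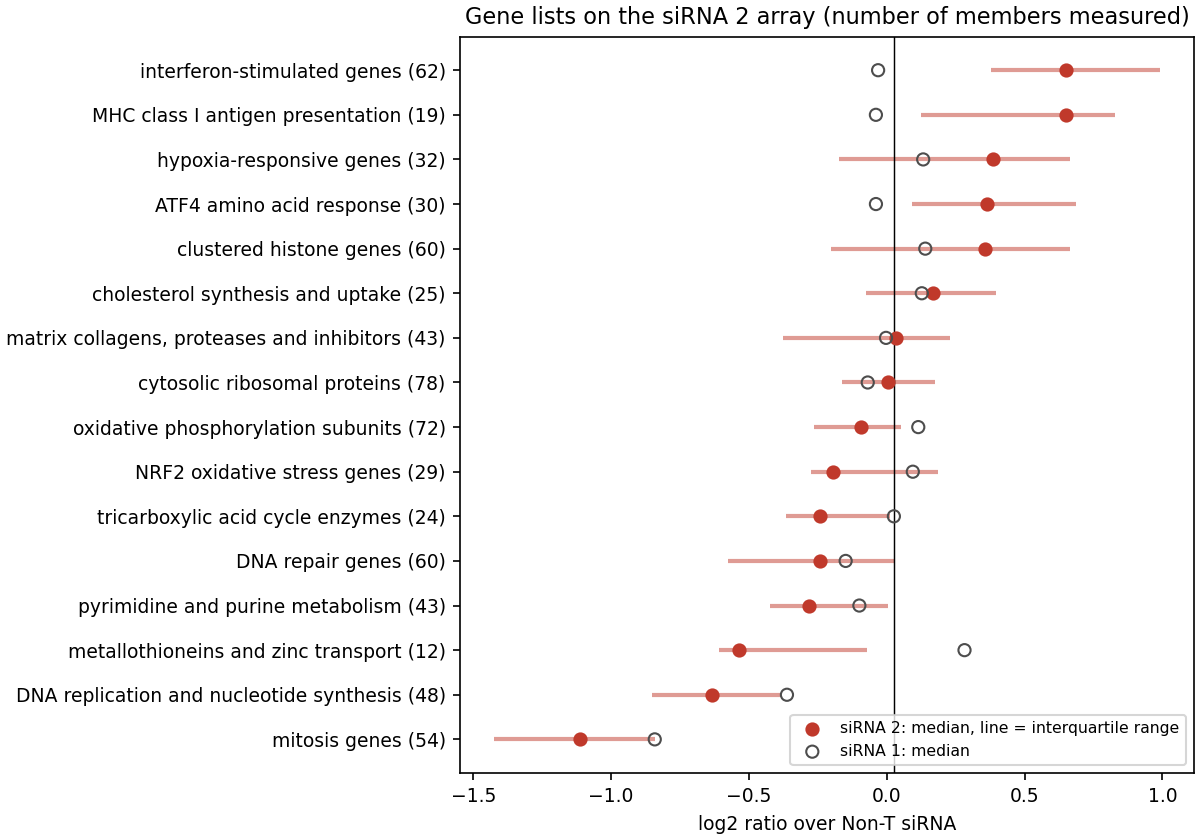
Median log2 ratio of the 11 shifted gene lists and 5 others on the siRNA 2 array (filled points, with the interquartile range of the members as a line) and on the siRNA 1 array (open points); the vertical line is the median of all genes with siRNA 2, at 0.02. The mitosis list lies at -1.11 and the interferon and MHC class I lists at 0.65 with siRNA 2.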

How the data were processed

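RNA of PC3 cells was labelled from oligo-dT primers and hybridized to dual-colour Agilent whole human genome arrays. The authors quantified spots with Feature Extraction 9.5.1.1 and deposited, per spot, the intensity of both channels, its local background and a processed intensity. Per the file headers, array coordinates are on hg18. The deposited log10 ratio and its p-value per spot are the software's own comparison and were not used. A deposited table of log2 ratios, loess-normalized by the authors with agilp, was an alternative.

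Here mean spot signals were background-corrected by normexp (offset 50) and the log2 ratio was normalized by loess (span 0.3, limma 3.58.1, R 4.3.3). The 100 outlier spots were dropped and spots of a probe averaged. Probes were kept where at least 0.5 of their spots were well above background in 1 channel or more, and the brightest probe stood for a gene. Names came from a RefSeq table (GRCh38.p14, names only) for 13295 of 19550 genes. Promoters came from the RefSeq promoter table. Changed means a fold of 2 or more, as in the study's methods, which used no test. A list was called shifted at a median 0.25 from that of all genes. The steps were tested on simulated data, and 12 alternatives of background correction, normalization, filter and probe summary were tried. With 1 array, precision is limited and no interval is given.

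Named genes were SUB1, with PLK1, MYC, BUB1B and CDKN1B, which the study names for SUB1 knockdown. DDIT4, STC1, QKI and EZH2, which the study names in another context, were added. The rule also took the 15 largest increases and decreases outside the interferon and mitosis lists (RefSeq-named and well above background in both channels). It further took genes whose 2 or more probes all passed 2-fold, and up to 4 members of each list. Others named as members of a list or programme were chosen after their values were seen. The members and lists were chosen with earlier results of these data known. Some of the measured genes are not reported here.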

Additional observations from a re-analysis of the deposited data

Results flagged for a closer look

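Among the gene lists and the genes taken by the naming rule, 4 cases had a change with SUB1 siRNA 2 beside a value on the other side of 0 on the siRNA 1 array, by more than 2 SDs of replicate spots (0.16). Genes outside the naming rule that met the same limits are not listed. RAB14, the endosomal GTPase, stood at -1.21 on the log2 scale with siRNA 2, against 0.45 with siRNA 1. SH3BP5, the JNK-binding protein, had -1.56 and 0.37 at its brighter probe, and its dimmer probe gave -1.15 with siRNA 2 and -0.33 with siRNA 1. SPARC, the matrix glycoprotein, had -1.27 and 0.70. The metallothionein and zinc transport list had its median at -0.54 with siRNA 2, while siRNA 1 gave 0.28. With 1 array per duplex these differences were not tested.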

How the results depend on the processing

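Of 12 alternative settings, none turned the sign of a called log2 ratio of a named gene or of a shifted list's median, but the balance of higher against lower genes turned under 2 of them. Across all genes, 66 were higher and 94 lower under all settings. The genes at least 2-fold higher with SUB1 siRNA 2 numbered 118, or 1134 with the Feature Extraction processed signals, 266 with median centring in place of loess and 190 with a normexp offset of 16. The genes at least 2-fold lower with SUB1 siRNA 2 numbered 205, or 480 with processed signals and 101 with median centring. The percent of changed genes that were higher was 36.5, or 70.3 with processed signals, 72.5 with median centring and 47.4 in the table of normalized log2 ratios by the authors. The SUB1 log2 ratio with SUB1 siRNA 2 was -3.26, or -3.00 with median centring, -3.15 in the authors' table and -2.87 as the mean of all probes. Lists with a median at least 0.25 above that of all genes numbered 5, or 8 with median centring and 3 with the mean of probes, and lists at least 0.25 below numbered 6, or 2 with median centring. The cause of these moves was not tested.

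No paired analysis was possible because there was 1 array per duplex, so leaving out a replicate was not possible either. Of the shifted lists, the mitosis, replication, interferon, MHC class I and hypoxia lists were the only ones that kept their distance from all genes under every setting. For dim genes, signal close to background limits the ratio. With median centring the median log2 ratio of all genes was 0.12 in place of 0.02, and the lower calls of ENO1, PABPC1, YWHAQ, CDC45, PDIA6, ACO1, CXCL1, FOSL1, CD44, ANXA5, BTF3, FANCI, FANCD2, OGG1, HMGB1, HMGN2, RPS2, UCKL1, SLC39A1 and H4C3 were lost. With the mean of all probes the calls of CDKN1B, JUNB, ZBTB1, MYPN, APOL3, TMEM150A, RRM2, HMGCS1, HSPA1A, ACO1, COX15, TOB1, HLA-C, ATF3, COL18A1, KRT80, HOXA13, FANCI, FANCD2, OGG1, HMGB1 and HMGN2 were lost.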

Other observations

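Among lists the comparison did not turn on, the 246 measured solute carriers had a median log2 ratio of 0.02, with the zinc importer SLC39A1 alone past 2-fold, at -1.09, a call lost with median centring. The 36 potassium channel genes had a median of 0.08, with KCNJ2 alone past 2-fold. The RNA interference machinery, which processes the transfected duplex, had a median of 0.04 over 18 genes with none past 2-fold, and AGO2, the slicing Argonaute, was among them. Mitochondrial ribosomal proteins had a median of -0.01 over 77 genes with none past 2-fold, beside ATP5MG at -2.52.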
